A study of Mus musculus with 2 samples.

Results

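To describe how genes of the S100, annexin and galectin families responded to Tubastatin A (TSA) early in Treg cell differentiation, 10 genes were taken by symbol from a table of 23282 rows: S100a4, S100a6, S100a10, S100a11, Anxa1, Anxa2, Lgals1, Lgals3, Vim and Lmna. They are called the members here, and all 10 were found once each. Naïve CD4+ T cells (genotype WT) from spleens of female C57BL/6 mice aged 7 to 10 weeks were activated on plate-bound anti-CD3ε with soluble anti-CD28. In both cultures IL-2 (1 ng/ml), TGF-β1 (5 ng/ml) and antibodies that block IFN-γ and IL-4 were present for 1 day, which starts the conversion of naïve cells to induced Treg (iTreg) cells. The control culture received the vehicle DMSO and the other received 10 μM TSA, an inhibitor of the tubulin deacetylase HDAC6. Each condition was 1 culture and 1 library, so no difference below has a replicate check, no p-value was computed, and an effect of TSA cannot be told apart from a difference between these cultures or library preparations.

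The naïve CD4+ cells had been purified with an isolation kit (MojoSort), which is meant to remove other cell types, and no sort after culture is described. Fewer cells of a type and less RNA per cell cannot be told apart in such bulk libraries. The libraries held 10846023 (control) and 10432287 (TSA) reads on genes, which were recovered from the deposited values because these fell on equal steps. A level is given below in reads or in CPM, reads per 1000000 reads on genes, of a 3' end library that counts about 1 read per captured transcript whatever its length, so that levels of different genes were compared without division by length. A fold change is TSA over control on the deposited scale, which is the log2 of a normalized count plus 1 and understates changes of genes with few reads. The 95% interval beside it was taken from the reads (exact, Clopper-Pearson), covers counting error only, and compares the libraries, not the conditions. A row counted as tested where either library held 10 reads or more, which means only that it was read against a 2-fold threshold, and 12164 rows passed this filter. Of the members, 9 passed, all of them with at least 27 reads in both libraries, and Anxa1 did not. The 8 T cell markers in the table were abundant in both libraries, with 19309 and 20771 reads in all. Cd3g had the fewest (602 and 794), Lck the most in the control library (4531) and Cd2 the most in the TSA library (4196). They moved in both directions, with intervals above no change for 4 and below it for 3 (Cd3e, Cd5 and Lck). The Treg factor Foxp3 had 1633 and 965 reads, and of the 6 iTreg markers 5 were lower and 1 higher.

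S100 proteins are small dimeric EF-hand proteins, most of which expose a binding surface when calcium rises. Annexins bind acidic phospholipids in the presence of calcium, and an S100 dimer can join annexins into a complex at the membrane, as S100A10 does with annexin A2. Galectins bind β-galactoside sugars on surface glycoproteins and can cross-link receptors, while vimentin and lamin A/C are intermediate filament proteins of the cytoplasm and the nuclear envelope. In CD4+ T cells, higher levels of many of these genes are known as a feature of effector, memory and activated states.

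In annotation GENCODE M21 of GRCm38, the build that the labels name as mm10, all 10 are protein-coding genes. S100a4 (90603771 to 90606045), S100a6 (90612882 to 90624181), S100a11 (93520488 to 93526287) and S100a10 (93555080 to 93564643) lie on chromosome 3, as does Lmna (88480147 to 88509956). Anxa1 lies on chromosome 19 from 20373428 to 20390944, Anxa2 on chromosome 9 from 69453620 to 69491795, Lgals1 on chromosome 15 from 78926725 to 78930465, Lgals3 on chromosome 14 from 47367751 to 47386160 and Vim on chromosome 2 from 13573927 to 13582826. The bases before the start site are shown for 2 members that were higher in the TSA library, S100a11 and Anxa2, and for 1 that was lower, Lmna, to show what their promoters do and do not share. The sequences are those of RefSeq on GRCm38.p6, written along the gene's strand and ended where an exon is annotated. Capitals mark matches of the AP-1 motif (TGANTCA) and of the GC box, which was searched on both strands. Of 2 sequences available for Lmna, the one with a GC box is shown, and the other matched neither motif. Both lie within the span of Lmna given above, not upstream of it.
S100a11, chr3:93520246-93520487, plus strand: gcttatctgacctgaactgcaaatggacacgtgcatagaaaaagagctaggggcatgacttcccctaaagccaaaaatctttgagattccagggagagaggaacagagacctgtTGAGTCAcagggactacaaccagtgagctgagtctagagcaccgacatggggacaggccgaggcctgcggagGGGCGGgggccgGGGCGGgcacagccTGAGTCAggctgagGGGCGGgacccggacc
Anxa2, chr9:69453433-69453619, plus strand: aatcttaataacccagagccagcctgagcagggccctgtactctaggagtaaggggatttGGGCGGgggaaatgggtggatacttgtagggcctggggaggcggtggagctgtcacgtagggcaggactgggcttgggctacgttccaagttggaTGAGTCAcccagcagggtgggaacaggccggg
Lmna, chr3:88503387-88503602, minus strand: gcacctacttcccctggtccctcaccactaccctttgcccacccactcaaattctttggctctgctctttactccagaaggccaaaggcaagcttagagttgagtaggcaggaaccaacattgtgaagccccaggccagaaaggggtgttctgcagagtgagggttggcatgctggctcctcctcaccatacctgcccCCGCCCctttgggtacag

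RefSeq gave 9 windows of 250 bases before a start for 8 members, and S100a10 and Lgals1 had no entry. The AP-1 motif, which reads the same on both strands, was found in the windows of S100a11 and Anxa2, that is in 2 of the 9, against 6.75% of 32851 windows of all genes. The GC box (GGGCGG, searched on both strands) was found in 4 of the 9 windows (32.7% of all), those of S100a11, Anxa2, Lgals3 and 1 of the 2 windows of Lmna. TATAAA on the gene's strand was found in 4 (7.59% of all), those of S100a4, Anxa1, Anxa2 and Vim, and the CArG box on both strands in 0 (1.47% of all). No motif overlapped another in these windows. The window of Vim lies within an annotated exon and is not printed. The motifs were chosen with the members' values known, and a match describes letters, not bound factors.

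No tested member passed 2-fold in either direction. The members moved in different directions: Anxa2, Lgals1, S100a11 and S100a10 were higher in the TSA library by more than counting error, Vim and Lmna were lower beyond it, and the intervals of S100a6, Lgals3 and S100a4 included no change. Vim showed the largest difference of the 9, a fold change of 0.519, and Anxa2 the largest increase, 1.64. Over all rows tested, 11.5% were more than 2-fold higher and 3.15% more than 2-fold lower. Among the 10068 rows whose normalized counts averaged 30 or more, which hold all 9 members, these shares were 4.03% and 1.82%. Past 1.5-fold, 3 members were higher and 1 was lower, against 18.7% and 8.34% of all rows tested and 10.3% and 6.97% of the rows at the members' level. The interval lay above no change for 4 members and below it for 2, against 28.1% and 28.0% of all rows tested and 24.8% and 32.1% at the members' level, so an interval that excludes no change was common at this depth. The median log2 fold change of the 9 was 0.023, the value of S100a6, that of all rows tested was 0.015 and that of the rows at the members' level -0.03. With Anxa1 counted in, the median of the 10 was 0.1545.

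**Figure D1:**
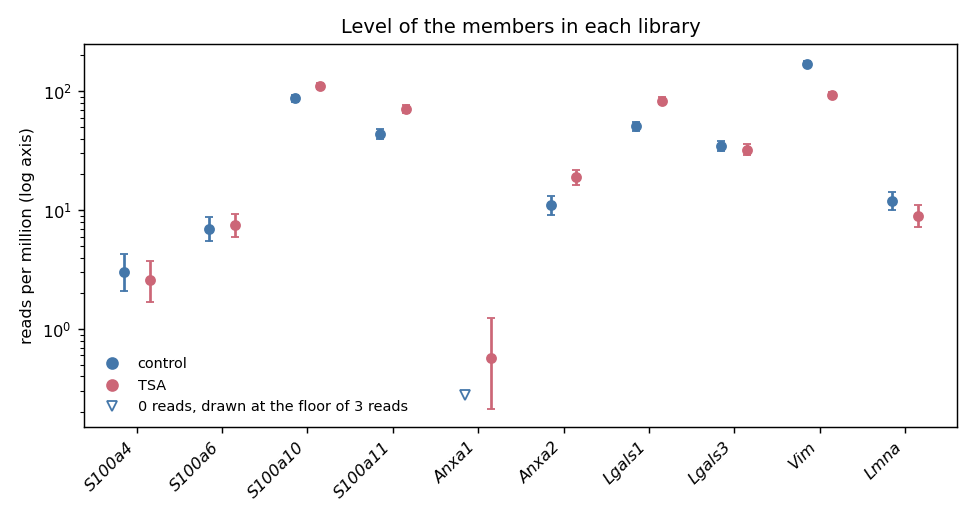
Level of each member in the control (blue) and TSA (red) library in CPM on a log axis, with exact Poisson 95% intervals that cover counting error only (1 library per condition). Vim was the most abundant member in the control library and S100a10 in the TSA library, and Anxa1, with 0 control reads, is drawn at the floor of 3 reads.

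Among the S100 genes, S100a10 was the most abundant, with 946 control reads (87.2 CPM) and 1165 TSA reads (112 CPM). Its product is the S100 protein that has lost calcium binding and holds annexin A2 at the plasma membrane. Its level was higher in the TSA library, with a log2 fold change of 0.29, a fold change of 1.22 (95% interval 1.12 to 1.33). S100a11, whose product binds annexin A1, had 475 and 742 reads (43.8 and 71.1 CPM). The difference was larger than that of S100a10, with a log2 fold change of 0.63 and a fold change of 1.55 (1.38 to 1.74), a value above that of 90.8% of the rows at the members' level. The intervals of these fold changes did not overlap each other. S100a6, which encodes calcyclin, a small calcium sensor, had 76 and 78 reads, and the interval of its fold change of 1.02 (0.731 to 1.41) included no change. S100a4, whose product binds non-muscle myosin and which is widely used as a memory T cell gene, was the least abundant of the 4, with 33 and 27 reads (3.04 and 2.59 CPM). Its fold change was 0.816 with an interval of 0.469 to 1.39, which includes no change, and smaller differences were not detectable at this depth. The 4 S100 members together had 1530 control and 2012 TSA reads, a fold of 1.30 (1.22 to 1.39), and most of these reads were those of S100a10 and S100a11.

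Of the annexin members, Anxa2, which encodes the partner of S100A10, had 119 control and 198 TSA reads (10.97 and 19.0 CPM). This was the largest increase among the tested members, with a log2 fold change of 0.72 and a fold change of 1.64 (1.31 to 2.09), above that of 92.7% of the rows at the members' level. S100a10 reads outnumbered Anxa2 reads in both libraries, by a ratio of 7.95 in the control (6.56 to 9.70) against 5.88 with TSA (5.06 to 6.88), and these intervals overlapped. Anxa1, which encodes a glucocorticoid-induced ligand of formyl peptide receptors, was close to absent. It had 0 control reads, where the deposited value is 0.004, and 6 TSA reads (0.575 CPM). With the control set at the floor of 3 reads (0.277 CPM) and the 6 TSA reads taken as exact, its fold was 1.98. The lower end of its counting interval, which allows for error in both counts, was 1.17. It did not pass the filter and is not counted among the genes that were higher.

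The galectin members differed from each other. Lgals1, which encodes galectin-1, a dimeric galectin known to act on activated T cells and to be made by Treg cells, had 549 and 867 reads (50.6 and 83.1 CPM). Its log2 fold change was 0.64 and its fold change 1.56 (1.40 to 1.74), above that of 91.1% of the rows at the members' level. Lgals3, which encodes the chimera-type galectin-3, had 376 and 336 reads (34.7 and 32.2 CPM), and its fold change of 0.885 (0.762 to 1.03) included no change. The ratio of Lgals1 to Lgals3 reads, which does not depend on how the libraries are scaled, was 1.46 (1.28 to 1.67) in the control against 2.58 (2.27 to 2.94) with TSA. These intervals did not overlap.

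Both intermediate filament members were lower in the TSA library. Vim, which encodes vimentin, had 1848 control reads (170.4 CPM) and 969 TSA reads (92.9 CPM). The deposited values of 10.86 and 9.915 give a log2 fold change of -0.945 and a fold change of 0.519 (0.480 to 0.562), so that the interval reached past the 2-fold threshold while the value did not. Only 2.16% of the rows at the members' level had a lower log2 fold change. Lmna, which encodes the A-type lamins, had 130 and 94 reads (12.0 and 9.01 CPM), a log2 fold change of -0.48 and a fold change of 0.718 (0.543 to 0.941). The ratio of Vim to Lmna reads was 14.2 (11.9 to 17.1) in the control against 10.3 (8.33 to 12.9) with TSA, and these intervals overlapped.

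**Figure D2:**
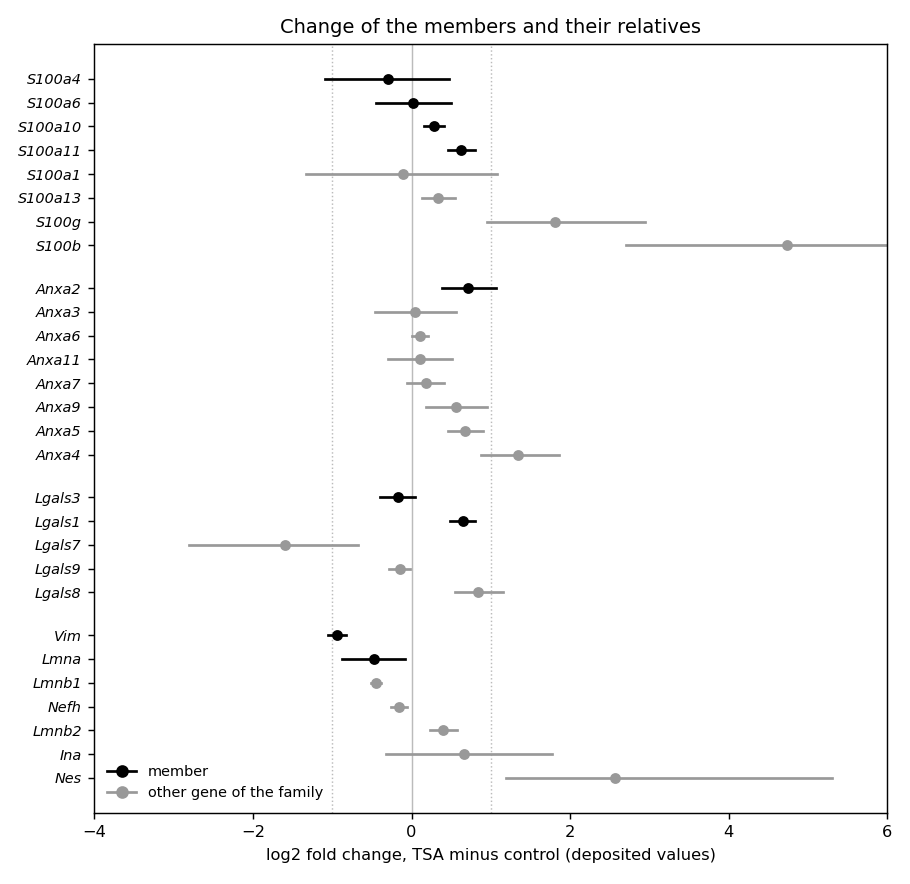
Log2 fold change (TSA minus control, deposited values) of the tested members (black) and of the other tested genes of their families (grey), with exact 95% intervals on the reads, solid line at no change and dotted lines at 2-fold. Of the members, 4 intervals lie above no change and 2 below it, and the 5 relatives past 2-fold are S100b, S100g, Anxa4 and Nes (higher) and Lgals7 (lower); the interval of S100b has no upper end and is drawn to the edge.

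The order of the members by level was therefore not the same in the libraries. In the control library Vim was followed by S100a10, Lgals1, S100a11, Lgals3, Lmna (12.0 CPM), Anxa2 (10.97 CPM), S100a6, S100a4 and Anxa1. The exact Poisson intervals of neighbours in this order overlapped only for Lgals1 (46.5 to 55.0 CPM) and S100a11 (39.9 to 47.9 CPM) and for Lmna and Anxa2. In the TSA library S100a10 (105 to 118 CPM) stood above Vim (87.1 to 98.9 CPM), whose interval overlapped that of Lgals1 (77.7 to 88.8 CPM), and S100a11 (66.1 to 76.4 CPM) lay below Lgals1. Below these came Lgals3, Anxa2, Lmna (7.28 to 11.03 CPM), S100a6 (5.91 to 9.33 CPM), whose intervals overlapped, and S100a4 and Anxa1. All 10 together had nearly the same reads in both libraries, 4552 and 4482, a fold of 0.975 (0.935 to 1.02). What differed was their makeup, with Vim at 40.6% of the members' control reads (39.2 to 42.0, an exact binomial interval) and 21.6% of their TSA reads (20.4 to 22.9). Lgals1 went from 12.1% (11.1 to 13.04) to 19.3% (18.2 to 20.5), and S100a11 from 10.4% (9.56 to 11.4) to 16.6% (15.5 to 17.7).

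**Figure D3:**
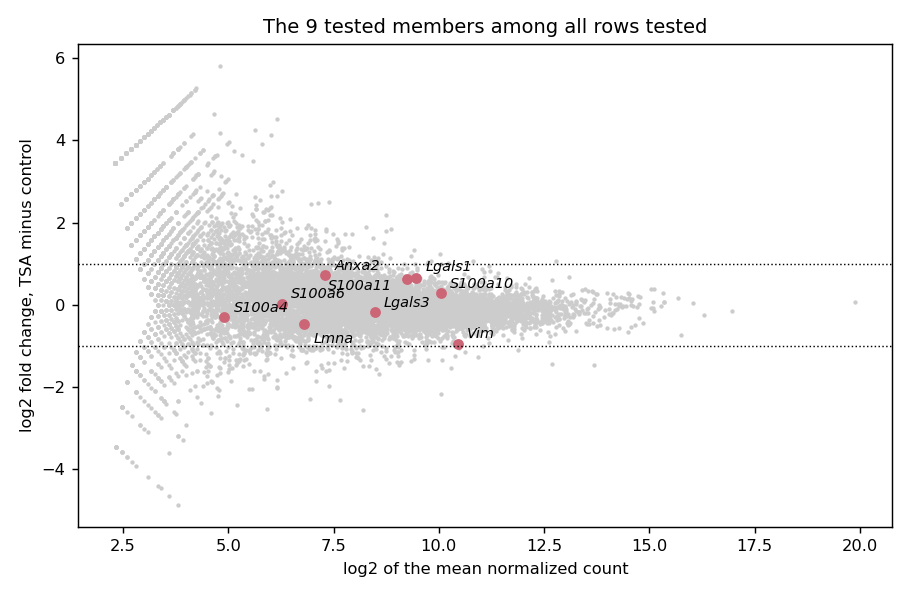
Log2 fold change against the log2 of the mean normalized count for all 12164 rows tested (grey), with the 9 tested members in red and dotted lines at 2-fold. No member lies beyond the dotted lines, and Vim, at -0.945, lies just inside the lower one.

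To see how the members compare with their own families, all other S100, annexin, galectin and type III to V intermediate filament rows were read in the same way. Of these 42 relatives, 14 had no read in either library and 19 were tested, 4 of which were more than 2-fold higher and 1 more than 2-fold lower, beside the 11.5% and 3.15% of all rows tested. Of these 4, S100b and Nes passed the read filter through the TSA library alone. In the S100 family, S100a13, which takes part in the non-classical release of growth factors, was the third most abundant gene, with 344 and 438 reads and a fold change of 1.26 (1.09 to 1.46). S100b, a gene of glial cells that is also found in some lymphocytes, had 0 and 26 reads. With the control set at the floor of 3 reads and the 26 TSA reads taken as exact, its fold was 8.58, and the lower end of its counting interval was 6.50. S100g, which encodes a vitamin D-dependent calbindin, had 12 and 45 reads and a fold change of 3.50 (1.93 to 7.71). Both genes overlap exons of a gene on the opposite strand, Dip2a (19 and 58 reads) for S100b and Ctps2 (169 and 253 reads) for S100g, and as the use of strand in counting is not given in the sources used here, their reads may be shared. S100a1 had 14 and 13 reads and its interval included no change. Of the genes next to S100a4 in the S100 cluster, S100a3 had 6 and 0 reads and S100a5 none in either library. S100a8 (4 and 0 reads) and S100a9 (no reads), the calprotectin genes of neutrophils, were at or near 0.

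The annexin family was led by Anxa6, an annexin with a duplicated core, with 1642 and 1783 reads and a fold change of 1.08 (1.005 to 1.15). The 7 tested relatives had log2 fold changes above 0, from 0.049 to 1.34, with intervals above no change for 4 of them. Of all rows tested, 51.3% were higher and 28.1% had such an interval. Anxa4 was past 2-fold, with 49 and 127 reads and a fold change of 2.54 (1.83 to 3.65). Its exons overlap Gm44036 on the opposite strand, which has no row in the table. Anxa5, which encodes the phosphatidylserine-binding protein used to stain dying cells, had 268 and 433 reads and a fold change of 1.60 (1.37 to 1.87), beside 1.64 for Anxa2. Anxa9 had 97 and 145 reads and a fold change of 1.48 (1.14 to 1.93). For Anxa7 (285 and 326 reads), Anxa11 (103 and 112) and Anxa3 (66 and 69) the intervals included no change. Anxa2 made up 4.53% (3.76 to 5.39) of annexin reads in the control against 6.16% (5.36 to 7.05) with TSA.

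In the galectin family, Lgals9, which encodes a tandem-repeat galectin and ligand of the receptor TIM-3, was the most abundant gene in the control library. It had 936 and 851 reads, and its fold change was 0.901 (0.8195 to 0.989). Lgals8, another tandem-repeat galectin, was higher in the TSA library, with 141 and 256 reads and a fold change of 1.79 (1.46 to 2.22), and overlaps exons of Heatr1 on the opposite strand (1608 and 1488 reads). Lgals7 was the single relative past 2-fold downwards, with 35 and 11 reads and a fold change of 0.33 (0.143 to 0.627). Its exons overlap Gm10648 on the opposite strand, which has no row in the table. As a share of galectin reads, Lgals1 went from 26.9% (24.9 to 28.8) to 37.3% (35.3 to 39.3), Lgals9 from 45.8% (43.6 to 48.0) to 36.6% (34.6 to 38.6) and Lgals3 from 18.4% (16.7 to 20.1) to 14.4% (13.03 to 15.9). Lgals1 and Lgals9 thus had about equal reads in the TSA library, while Lgals9 led in the control library.

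The lamin genes were dominated by Lmnb1, the B-type lamin of dividing cells, with 4114 and 3048 reads and a fold change of 0.734 (0.6998 to 0.769). The fold change of Lmna was 0.718, and the ratio of Lmnb1 to Lmna reads was 31.6 (26.6 to 38.0) in the control against 32.4 (26.4 to 40.3) with TSA, intervals that overlapped almost fully. Lmnb2 was higher, with 520 and 694 reads and a fold change of 1.32 (1.18 to 1.48), and went from 10.9% (10.0 to 11.8) to 18.1% (16.9 to 19.3) of lamin reads. Lmna held 2.73% (2.28 to 3.23) and 2.45% (1.98 to 2.99). Of the cytoplasmic filament genes, Nefh had 1776 and 1605 reads with a fold change of 0.895 (0.836 to 0.958), and Ina, which overlaps exons of Nt5c2 on the opposite strand (329 and 411 reads), had 14 and 23 reads and an interval that included no change. Nes, which encodes nestin, had 3 and 23 reads and a fold change of 5.94 with an interval of 2.29 to 39.5, a ratio that rests on 3 control reads. Des, Prph, Nefl and Synm had no reads.

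**Figure D4:**
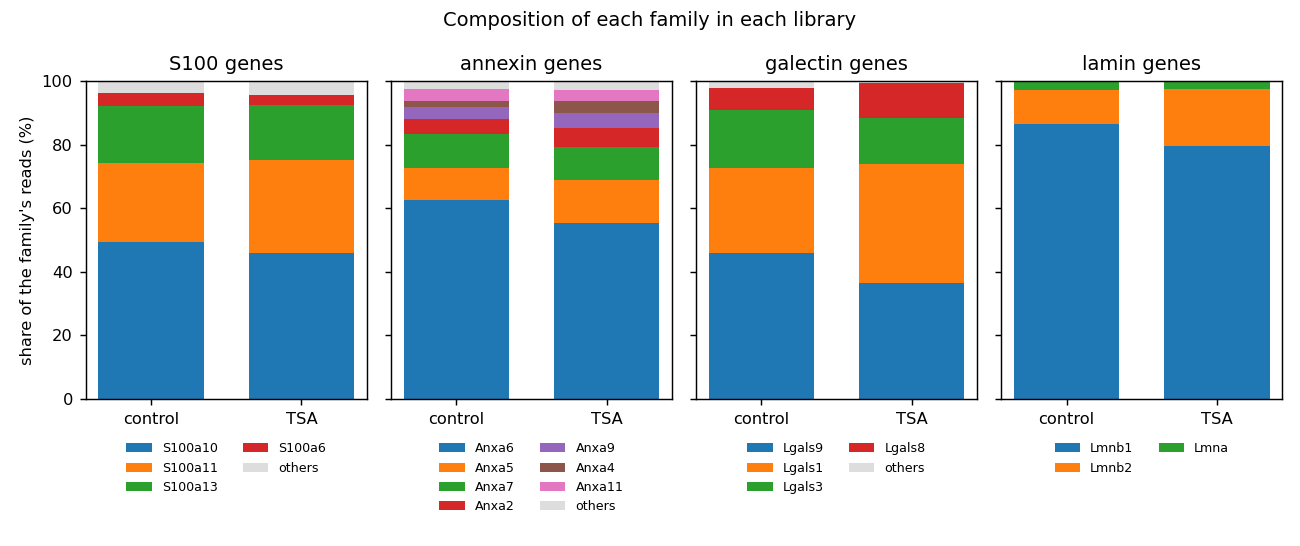
Share of each family's reads (%) by gene in the control and TSA library, from 1913 and 2534 reads of S100 genes, 2629 and 3212 of annexin genes, 2044 and 2327 of galectin genes and 4764 and 3836 of lamin genes; genes under 3% in both libraries (2% for lamins) are joined as others. The largest shift among members is that of Lgals1, from 26.9% to 37.3% of galectin reads.

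Genes that work with the members or that accompany them in T cells were examined as 6 lists, chosen from general knowledge. Of all rows tested, 51.3% were higher, 11.5% were past 2-fold upwards and 3.15% past 2-fold downwards, and the counts below are to be read beside these shares. Of 21 tested binding partners, receptors and ligands, 4 passed 2-fold upwards and 0 downwards, but 3 of the 4 passed the read filter through the TSA library alone. The median log2 fold change of the 21 was 0.23 beside 0.015 for all rows tested, and with 10 reads or more in both libraries that of the remaining 18 was 0.1405 beside -0.017, with 1 past 2-fold upwards, where 4.80% of all such rows were. The 4 were Plaur (49 and 122 reads), the urokinase receptor, whose fold change was 2.44 (1.76 to 3.51), and Plau, Pla2g4a and Ager, which had under 10 control reads each. Plau, which encodes urokinase, had 4 and 10 reads with an interval that included no change. Pla2g4a, the phospholipase known to be inhibited by annexin A1, had 1 and 11 reads and a fold change of 5.94 (1.58 to 469). Ager, which encodes the S100 receptor RAGE, had 7 and 20 reads and a fold change of 2.60 (1.15 to 7.92). The 3 partners with the most reads, Ptprc (CD45, a galectin ligand), Myh9 (the myosin that S100A4 binds) and Spn (CD43), had fold changes of 1.17, 0.897 and 0.917.

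Effector and memory genes, the company in which S100 and galectin genes are usually found, had a median log2 fold change of 0.245 over 29 tested genes, 22 of them higher and 7 lower, with 2 past 2-fold upwards and 0 downwards (11.5% and 3.15% of all rows). These were Gsn (gelsolin), with 49 and 182 reads and a fold change of 3.63 (2.67 to 5.15), and Ly6a (Sca-1), with 4537 and 9647 reads and a fold change of 2.11 (2.03 to 2.18). The most abundant of them, Tmsb4x (thymosin β4), Cd52 and Tagln2 (transgelin-2), had fold changes of 1.23, 1.10 and 1.01. Naïve T cell genes had a median of 0.239 over 15 tested genes, 14 of them higher, with Klf2 (1158 and 2436 reads, a fold change of 2.08) and Nsg2 (216 and 489 reads, 2.24) past 2-fold upwards and 0 downwards. Foxp1, Igfbp4 and Bach2, which had the most reads of this list, had fold changes of 1.10, 1.18 and 1.13. In the egress and migration list, 12 of 14 genes were higher, 2 of them (Klf2 and Itgae, with 17 and 39 reads) past 2-fold, with a median of 0.3515. Nothing particular to these lists is read from 2 such genes in each. Klf2 and Ccr7 belong to both of the last lists. Ccr7, the receptor that guides naïve cells to lymph nodes, had 3484 and 5494 reads and a fold change of 1.56, and Itgal and Selplg, the next by reads, had 1.02 and 1.04.

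Nuclear envelope genes had a median log2 fold change of 0.022 over 18 tested genes, of which 9 were higher and 9 lower. Syne2 (27 and 85 reads) and Syne4 (9 and 24), which encode nesprins that tie the nucleus to the cytoskeleton, were more than 2-fold higher, with fold changes of 3.04 (2.001 to 5.001) and 2.48 (1.18 to 6.46). These are 2 of 18, a share near the 11.5% of all rows. Syne4 passed the read filter through the TSA library alone, and without it the median of the other 17 was -0.003. Banf1, Lmnb1 and Tmpo, which had the most reads of this list, had fold changes of 0.821, 0.734 and 0.762. Targets of the actin-controlled factor SRF, together with actin genes, had a median of -0.15 over 18 tested genes, 6 higher and 12 lower. Of these, Acta2 (13 and 36 reads) was more than 2-fold higher and Fhl2 (43 and 17 reads) more than 2-fold lower, and Actb, Actg1 and Tagln2, the most abundant, had fold changes of 0.904, 0.738 and 1.01 beside 0.519 for Vim.

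**Figure D5:**
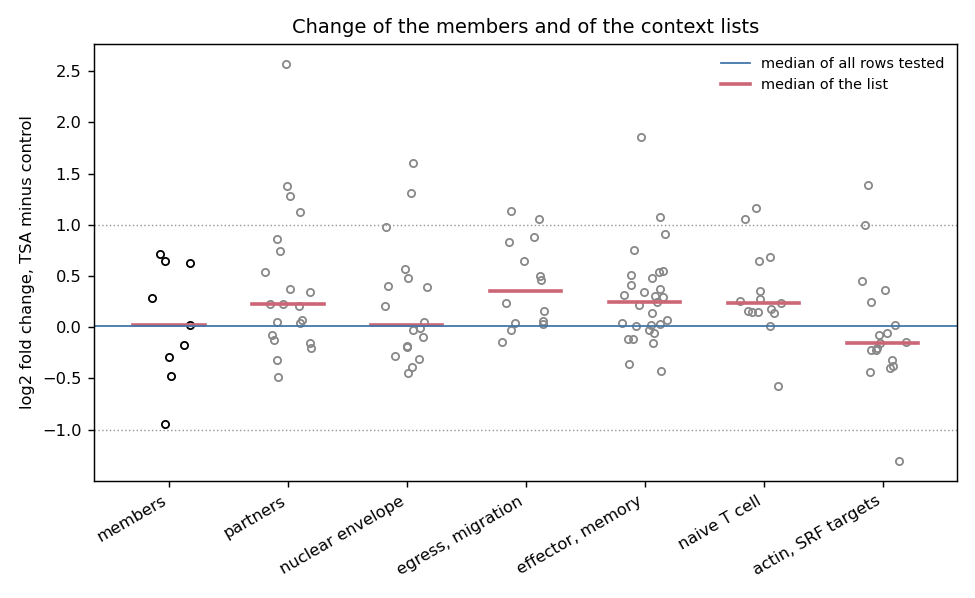
Log2 fold change (TSA minus control) of the tested genes of each list (open circles, spread sideways for visibility), with the list's median in red, the median of all rows tested in blue and dotted lines at 2-fold. The median of the members, 0.023, lies next to that of all rows, and those of the partner, egress, effector and naïve lists lie between 0.23 and 0.3515, where that of the partners falls to 0.1405 with 10 reads or more asked of both libraries.

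Because S100, annexin, galectin and vimentin genes are abundant in myeloid and stromal cells, the markers of other cell types, which the purification before culture is meant to remove, were read in both libraries. The 9 monocyte and macrophage markers summed to 86 and 106 reads (7.93 and 10.2 CPM), mostly Cx3cr1 (24 and 57) and Cd68 (32 and 19). Of 6 neutrophil markers, 3 had no reads and the sum was 8 and 16 reads, and of 6 dendritic cell markers 2 had no reads and the sum was 15 and 50 reads. Of the others, Flt3 had 0 and 33 reads, Zbtb46 2 and 11, Itgax 4 and 0 and Xcr1 9 and 6, and without Flt3 the sum was 15 and 17, a fold of 1.12 (0.527 to 2.41). The 9 stromal and endothelial markers summed to 155 and 273 reads, of which Pecam1, also a naïve T cell gene, held 144 and 234. The collagen genes did not move together, with Col1a1 at 1 and 20 reads, Col1a2 at 9 and 0 and Col3a1 at 0 in both. Without Pecam1 the sum was 11 and 39 reads, a fold of 3.51 (1.76 to 7.60), and without Col1a1 it was 154 and 253, a fold of 1.63 (1.33 to 2.001). B cell markers summed to 16 and 18 reads, NK cell markers to 33 and 46, platelet markers to 46 and 50, erythroid markers to 43 and 58, and Cd8a with Cd8b1 to 80 and 87. Each of these sums was higher in the TSA library, by more than counting error for the stromal and endothelial markers and, only with Flt3, for the dendritic cell markers. Pecam1 and Col1a1 were left out singly, and the sum without both was not computed. None of the stromal and endothelial markers that remain without both had more than 9 reads in either library. The sums moved in the direction of Anxa2, Lgals1, S100a10 and S100a11 and against that of Vim and Lmna, and their part in the results was not tested.

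Reads of some members may be shared with other loci. In the last 300 nt of their coding transcripts, S100a11 matched processed pseudogenes Gm12854 and Gm7665 over 160 nt at 98.1% and 97.5% identity, and S100a4 matched the overlapping gene Gm42674, none of which has a row in the table. No other member matched another gene over at least 75 nt at 95% identity or more. Anxa2 and Anxa1 overlap exons of genes on the opposite strand, Gm16144, which has no row, and 1500015L24Rik, which had no reads. Among the relatives, exons of Anxa3, Anxa9 and Anxa11 also overlap other genes without a row, as do those of Anxa4 and Lgals7.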

How the data were processed

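Total RNA of 2 cultures was made into QuantSeq 3' libraries and sequenced as single-end 75-nt reads, and the authors analysed them with ExDEGA. The submitters' processing notes list Bowtie2, bedtools and mm10; the annotation, the scaling and the strand setting are not given in the sources used here. Each deposited value is the log2 of a normalized count plus 1, as the authors scaled it. Taken back from it, 99.9% (control) and 99.8% (TSA) of values of 1 to 300 reads came out whole to within 0.1 read, at 1.005 and 0.995 normalized counts per read, and 1940 control rows listed at 0.001 to 0.016 were read as 0 reads. A single row, Rn45s, held 8.72% and 9.63% of the reads.

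Fold changes are differences of the deposited values (pseudocount of 1). The samples were grouped by their treatment labels. Intervals are exact, cover counting error only, and PCR copies were not separated. The steps were tested on simulated data. The members, lists and tests were chosen with earlier results of these data known. Named genes are all members and, per context list, genes past 2-fold and the 3 with most reads; any tested relative or marker could be named, and the markers printed were chosen with their values known; S100a3, S100a5, S100a8, S100a9, Dip2a, Ctps2, Heatr1, Nt5c2, Des, Prph, Nefl and Synm were added after their values were seen. Alternatives covered scaling, pseudocounts of 0.1 and 5, filters and thresholds; the background over rows whose normalized counts average 30 or more and the marker sums without Flt3, Pecam1 or Col1a1 were added after seeing the data. Intervals were computed with scipy 1.17.1, tables handled with pandas 2.3.3 and numpy 2.4.6 under Python 3.11.15, plots drawn with matplotlib 3.10.9, and copies of transcript ends searched with blastn 2.17.0.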

Additional observations from a re-analysis of the deposited data

How the results depend on the processing

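No paired analysis was possible because each condition had 1 library only, so that no replicate could be left out either. Under 4 other scalings of the libraries (total reads, upper quartile, median of ratios, total without Rn45s), which moved the median of all rows tested by at most 0.084 on the log2 scale, and under both other pseudocounts, no tested member passed 2-fold and no member's log2 fold change changed sign. Under these scalings 6 members had intervals that excluded no change, as many as before. The log2 fold change of Vim ranged from -0.946 to -0.860, that of Anxa2 from 0.697 to 0.80, and that of S100a6 from 0.022 to 0.107. Without a filter on low counts, 1 member (Anxa1), 12 relatives and 22 genes of the context lists passed 2-fold, against 0, 5 and 13. With a 1.5-fold threshold the numbers were 4, 8 and 23. With the whole interval past 2-fold, 2 relatives and 3 genes of the context lists passed it, and with at least 10 reads in both libraries 3 relatives did. In that last setting the median of the nuclear envelope genes turned from 0.022 to -0.003, as fewer genes were tested, and the medians of the other S100 genes and of the other filament genes moved from 1.07 to 0.33 and from 0.40 to 0.12. The median of the partners moved from 0.23 to 0.1405. Without the filter it was 0.071, that of the members was 0.1545 instead of 0.023, and those of the other S100 and other filament genes were 0. Depth limited S100a4 and Anxa1, the members with the fewest reads, most.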
